A study of Sus scrofa with 4 samples.

Results

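The 10 genes described here are the D-type cyclins CCND1, CCND2 and CCND3, the E-type cyclins CCNE1 and CCNE2, the CDK inhibitors CDKN1A, CDKN1B and CDKN2C, the transcription factor E2F1 and the retinoblastoma gene RB1. They were taken by symbol, for their known place at the step from G1 to S phase, out of 16192 protein-coding genes measured during the differentiation of pig subcutaneous preadipocytes. All 10 passed the expression filter used for the study (an FPKM of 1 or more in 3 libraries or all 4), as did 9191 protein-coding genes in all. FPKM counts the fragments that fall on a gene per 1000 bases of its length, scaled by the fragments counted in that library.

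The cells came from the subcutaneous fat of male Chinese Erhualian piglets that were 5 days old, with no genetic change, and were grown in the same serum-containing medium. D0 was the confluent culture before induction. D2 had received the DMI cocktail of dexamethasone, 3-isobutyl-1-methylxanthine and insulin for 2 days, D4 had then been kept in insulin medium for 2 more days, and D8 was collected after a return to growth medium. RNA of 3 piglets was mixed in equal amounts into 1 strand-specific, rRNA-depleted library per stage. With 1 library per stage there are no replicates, a stage cannot be told apart from its library, no comparison of stages has a test or a p-value, and 3 animals per pool limit how far the values stand for the breed. The libraries held 54128151 to 75387428 counted fragments, and the 95% intervals given below cover counting error only. PCR copies are not independent molecules, and differences between cultures or animals are not in these intervals.

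Cyclins of the D and E types bind and switch on the kinases CDK4, CDK6 and CDK2, which phosphorylate the RB protein. RB without phosphate holds E2F factors in check, and phosphorylated RB releases them, so that genes for DNA replication are transcribed. CDK inhibitors of the Cip/Kip family (encoded by CDKN1A and CDKN1B) and of the INK4 family (CDKN2C among them) restrain these kinases. In cultured preadipocytes, the step is known for growth arrest at confluence, for a round of division after the hormones are added, and for the exit from the cycle that goes with the adipocyte state. Much of this control acts on proteins and their phosphorylation, which mRNA levels do not show.

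The adipocyte label of the later stages was checked against marker genes. Summed FPKM of 12 adipocyte markers was 154.3 on D0, 750.7 on D2, 2860 on D4 and 2900 on D8, and ADIPOQ, which encodes adiponectin, was at 3.80, 29.6, 178.7 and 158.2 at these stages. The near-level sum from D4 to D8 rests mostly on FABP4 (853.3 and 1557, named after its values were seen). Of the 9 markers past the filter, 8 were lower at D8 than at D4 (median log2 ratio −0.81, beside −0.21 for all genes). Of these, 4 passed the ratio of 2, beside 10.1% of all genes. The markers below the filter went the other way, and they too are named after their values were seen. From D4 to D8, CIDEC went from 5.01 to 54.6, PLIN4 from 2.65 to 4.76 and LEP, at a very low level, from 0.0269 to 0.314. Of 9 preadipocyte and fibroblast markers found, 8 had an FPKM of at least 1 at D0. Their sum was lowest at D0, with 1132 on D0, 2274 on D2, 3037 on D4 and 2297 on D8. The largest part of it was COL3A1, at 490.7, 1286, 2058 and 1624. PDGFRA was at 75.8, 189.0, 149.2 and 60.8 at these stages. For D4 against D0, 4 of the 8 past the filter were at least 2-fold higher and 0 lower, beside 10.4% and 8.81% of all genes. For D8 against D0, 2 were at least 2-fold higher and 1 lower, beside 3.60% and 3.68%. In that comparison 5 of the 8 had a ratio below 1, with a median log2 ratio of −0.17 beside −0.18 for all genes. Among 6 endothelial markers found, 5 were under an FPKM of 1 at each stage, and their sum lay between 1.16 and 2.74. The 6 macrophage and leukocyte markers found summed to 3.81 to 9.04. Those past the filter were CD14, at 3.14, 5.64, 7.54 and 2.78 from D0 to D8, and CD163, at 0.270, 1.42, 1.01 and 1.38, while the pan-leukocyte gene PTPRC was at most at an FPKM of 0.0712. Smooth muscle and pericyte markers had sums of 3442, 366.8, 233.0 and 2826 from D0 to D8, most of it ACTA2. Of the 6 found, 2 were under an FPKM of 1 at D0 and D8, and 3 at D2 and D4.

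CCND1 encodes cyclin D1, the D-type cyclin that growth factors induce in many cells. It lies on chromosome 2 from 3621242 to 3633380 on the minus strand of Sscrofa11.1, the build of all positions given here. Its FPKM was 14.4 on D0, 2.57 on D2, 2.79 on D4 and 7.27 on D8, from 4645, 606, 887 and 1686 reads. It was thus high before induction, low at both middle stages and intermediate at D8. FPKM at D2 was 5.57-fold lower than at D0 (log2 ratio −2.48, 95% counting interval −2.61 to −2.36), and at D8 it was 2.61-fold higher than at D4 (1.38, 1.27 to 1.504). D4 and D2 could not be separated by counting error (0.11, −0.04 to 0.27), and D8 stayed 1.98-fold below D0 (−0.98, −1.07 to −0.90), just short of the ratio of 2. In a bulk culture, fewer cells of a type and less RNA per cell cannot be told apart, here and in all values that follow. The summed FPKM of the smooth muscle and pericyte markers was also highest at D0, low at D2 and D4 and high again at D8. The sum is mostly ACTA2, and its members differed. CNN1 was at 94.3, 4.22, 2.39 and 24.3 from D0 to D8, but DES, at 435.8, 37.7, 4.05 and 35.7, was no higher at D8 than at D2. The members below the filter are named after their values were seen. CSPG4, at 3.85, 0.338, 0.516 and 2.72, was highest at D0 and higher at D8 than at D4. MYH11, at 0.633, 0.350, 0.341 and 0.289, was lowest at D8. RGS5, at 0.156, 0.142, 0.742 and 0.352, was highest at D4. Whether these markers stand for a cell population, and any part of it in the CCND1 values, was not tested. The study measured CCND1 by qRT-PCR as well, on replicate RNA samples of each stage. For the genes it tested this way, the paper reports trends similar to those of its RNA-seq. The primer pair of that assay is printed here, 5′ to 3′, and was not aligned to the gene.
CCND1 forward: caacctcctcaacgatcggg
CCND1 reverse: tccttctgcacgcacttgaa

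CCND2 encodes cyclin D2 and lies on chromosome 5 from 66092483 to 66114575, minus strand. Its FPKM was 34.9 on D0, 43.0 on D2, 59.4 on D4 and 30.9 on D8. The highest stage was therefore D4, where CCND1 was low, and the lowest was D8. The log2 ratio was 0.77 at D4 against D0 (0.70 to 0.83) and −0.94 at D8 against D4 (−1.02 to −0.87), and no comparison reached a ratio of 2. CCND3, which encodes cyclin D3 and lies on chromosome 7 from 37087336 to 37182462, minus strand, had FPKM values of 7.23, 3.65, 5.50 and 8.21 in the same order of stages. Its lowest level was at D2, 1.98-fold under D0 (log2 ratio −0.99, −1.10 to −0.87), and its highest was at D8.

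CCND2 had the highest FPKM of the D-type cyclins at each stage. The sum of the 3 genes was 56.5 on D0, 49.2 on D2, 67.6 on D4 and 46.4 on D8. The share of CCND2 in this sum was 61.8% on D0, 87.4% on D2, 87.8% on D4 and 66.6% on D8, and that of CCND1 was 25.4%, 5.23%, 4.12% and 15.7%. The FPKM of CCND2 was 2.43 times that of CCND1 at D0 and 21.3 times at D4. Such a comparison between genes depends on the lengths used by the authors. The shortest length that turns the FPKM values into whole reads is 1222 bases for CCND2 and 4282 for CCND1, so that the 2 levels rest on gene models of unequal extent.

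**Figure D1:**
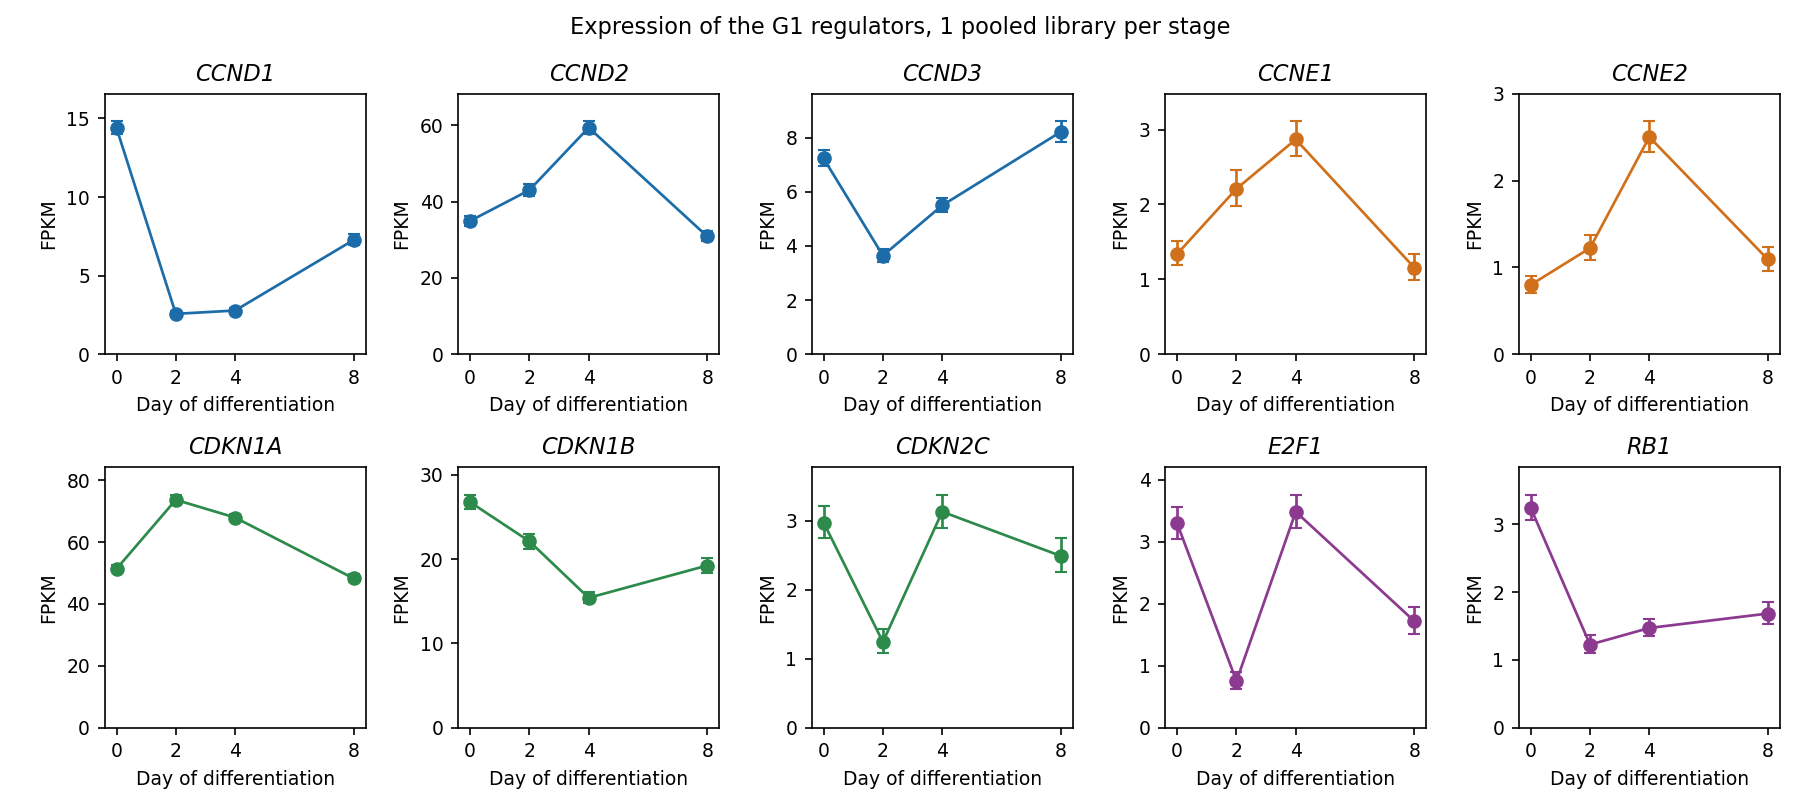
FPKM (y axis, linear from 0, a scale of its own for each gene) of the 10 genes at days 0, 2, 4 and 8 (x axis), 1 pooled library per stage, with bars for the 95% Poisson counting interval. CCND1 is at 14.4 at D0 and 2.57 at D2, CCND2 is highest at D4 with 59.4, and E2F1 is at 0.753 at D2 between 3.30 and 3.49 at the stages on either side.

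CCNE1 and CCNE2 encode cyclins E1 and E2, the partners of CDK2 late in G1, and both are known targets of E2F. CCNE1 lies on chromosome 6 from 39919541 to 39933224, plus strand, and its FPKM was 1.34 on D0, 2.21 on D2, 2.87 on D4 and 1.16 on D8. CCNE2 lies on chromosome 4 from 41802090 to 41821870, plus strand, and its FPKM was 0.800, 1.22, 2.50 and 1.09. Both were highest at D4 and were already higher at D2 than at D0, by a log2 ratio of 0.72 (0.49 to 0.96) for CCNE1 and 0.61 (0.37 to 0.86) for CCNE2. Against D0, D4 was 2.13-fold higher for CCNE1 (1.09, 0.89 to 1.31) and 3.10-fold higher for CCNE2 (1.63, 1.44 to 1.85). Against D4, D8 was 2.47-fold lower for CCNE1 (−1.30, −1.56 to −1.06) and 2.28-fold lower for CCNE2 (−1.19, −1.40 to −0.99). For CCNE1, D0 and D8 could not be separated by counting error (−0.21, −0.49 to 0.06).

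E-type cyclin mRNA was sparse beside that of the D type. The FPKM of CCNE1 and CCNE2 together was 2.14 on D0, 3.43 on D2, 5.37 on D4 and 2.25 on D8. CCNE2 made up 37.4% of it at D0 and 46.6% at D4. The smallest numbers of reads behind these values were 174 for CCNE1 and 254 for CCNE2, both at D8.

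CDKN1A encodes p21, which binds cyclin and CDK complexes, and lies on chromosome 7 from 32354776 to 32363771, plus strand. Its FPKM was 51.4 on D0, 73.7 on D2, 67.9 on D4 and 48.2 on D8, the most abundant of the 10 genes at every stage measured. D2 was higher than D0 by a log2 ratio of 0.52 (0.48 to 0.56), and D8 was lower than D4 by 0.49 (−0.54 to −0.45). Levels at D8 and D0 differed by −0.09 (−0.14 to −0.04), and this sign turned to 0.07 when libraries were scaled by median-ratio size factors. CDKN1B encodes p27, the inhibitor that accumulates in resting cells, and lies on chromosome 5 from 59731224 to 59735831, minus strand. Its FPKM was 26.7, 22.1, 15.4 and 19.2, so that its lowest stage was D4, at a log2 ratio of −0.80 to D0 (−0.87 to −0.72). Neither gene reached a ratio of 2 in any comparison.

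CDKN2C encodes p18, an INK4 inhibitor of CDK4 and CDK6, and lies on chromosome 6 from 161160290 to 161166681, minus strand. Its FPKM was 2.97 on D0, 1.24 on D2, 3.13 on D4 and 2.49 on D8. D2 stood apart as the low stage, 2.38-fold under D0 (log2 ratio −1.25, −1.49 to −1.03) and 2.50-fold under D4. D4 and D0 could not be separated by counting error (0.07, −0.08 to 0.23). Among the 3 inhibitors, CDKN1A made up 63.3% of the summed FPKM at D0 and 78.6% at D4, while CDKN1B made up 33.0% and 17.8%. The sum was 81.1 on D0, 97.0 on D2, 86.5 on D4 and 70.0 on D8.

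**Figure D2:**
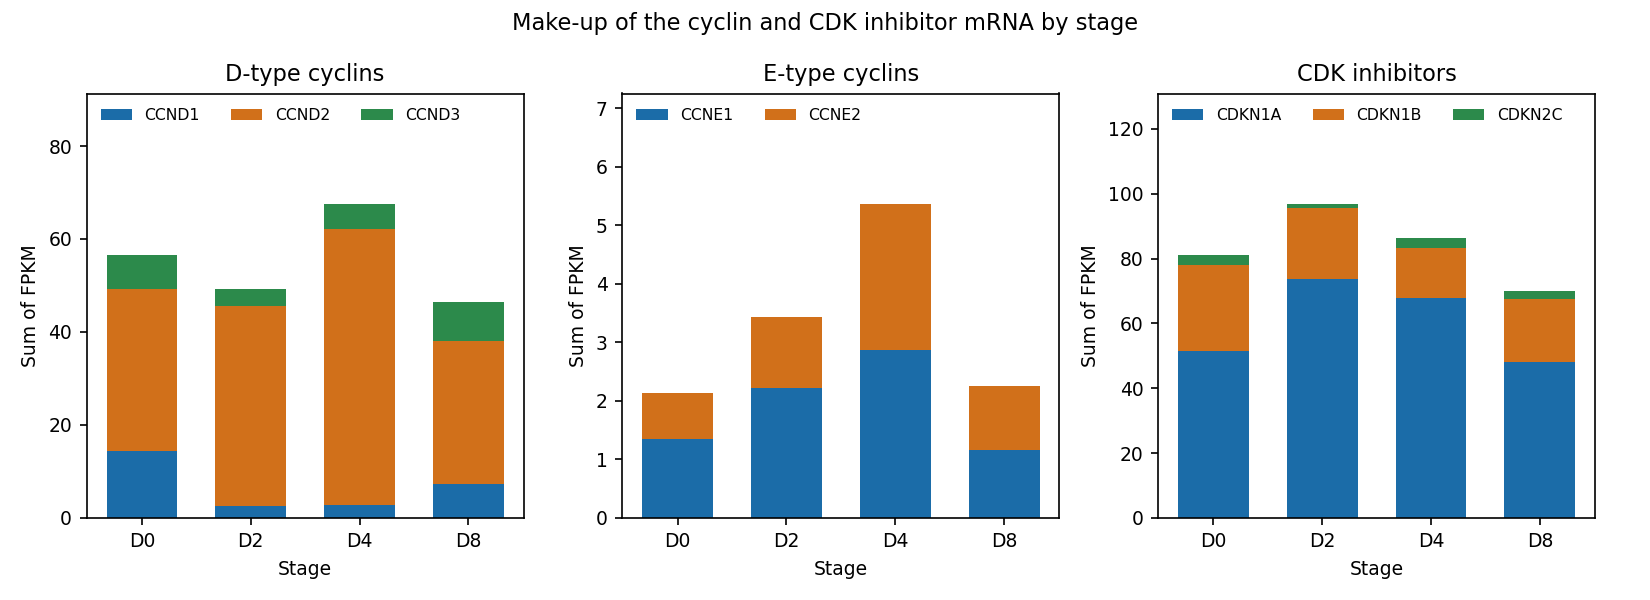
Summed FPKM (y axis, from 0, a scale of its own for each group) of the D-type cyclins, the E-type cyclins and the CDK inhibitors at each stage (x axis), stacked by gene, 1 library per stage and no error bars. CCND2 takes 87.4% and 87.8% of the D-type sum at D2 and D4, and the E-type sum reaches 5.37 at D4.

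E2F1 encodes an activating E2F factor whose gene is also a target of E2F. It lies on chromosome 17 from 37178587 to 37190118, minus strand. Its FPKM was 3.30 on D0, 0.753 on D2, 3.49 on D4 and 1.72 on D8, from 654, 109, 682 and 245 reads. D2 was the low stage, 4.33-fold under D0 (log2 ratio −2.12, −2.44 to −1.84) and 4.58-fold under D4 (2.20 for D4 against D2, 1.92 to 2.52). D4 and D0 could not be separated by counting error (0.08, −0.08 to 0.24). D8 was 2.02-fold under D4 (−1.01, −1.24 to −0.81), just past the ratio of 2.

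RB1 encodes the retinoblastoma protein and lies on chromosome 11 from 19186754 to 19317642, minus strand. Its FPKM was 3.24 on D0, 1.23 on D2, 1.47 on D4 and 1.69 on D8. The level was highest in the confluent culture and lower at each later stage. D2 was 2.63-fold under D0 (log2 ratio −1.39, −1.58 to −1.22), D4 2.19-fold (−1.13, −1.29 to −0.99) and D8 1.92-fold (−0.94, −1.11 to −0.78). E2F1 and RB1 were thus both low at D2, and at D4 E2F1 was near its D0 level while RB1 was not.

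Counted over the 10 genes, D2 against D0 had 4 at least 2-fold lower (CCND1, CDKN2C, E2F1 and RB1) and 0 at least 2-fold higher, where 10.1% and 6.67% of the 9191 genes passed the ratio in these directions, 16.8% in all. D4 against D2 had 3 higher (CCNE2, CDKN2C and E2F1) and 0 lower, where 4.24% and 0.838% of all genes passed, 5.08% in all. D8 against D4 had 1 higher (CCND1) and 3 lower (CCNE1, CCNE2 and E2F1), where 4.43% and 10.1% passed, 14.5% in all. D4 against D0 had 2 higher (CCNE1 and CCNE2) and 2 lower (CCND1 and RB1), where 10.4% and 8.81% passed, 19.2% in all. D8 against D0 had 0 in either direction, where 3.60% of all genes were higher and 3.68% lower, 7.28% in all. The log2 ratios just past the threshold were those of E2F1 at D8 against D4 (−1.01) and CCNE2 at D4 against D2 (1.03). The CCNE2 call for D4 against D2 was lost in 5 of 7 alternative settings, with log2 ratios of 0.97 (pseudocount of 0.1), 0.95 (median-ratio size factors) and 0.96 (protein-coding sum) among them, and the E2F1 call for D8 against D4 was lost in 4. Of the 7, the setting without a filter and the ratio of 1.5 could not lose a call. Requiring an FPKM of at least 1 in all 4 libraries dropped both genes whatever their ratios. Those just short of the threshold were CCND3 at D2 against D0 (−0.99) and CCND1 at D8 against D0 (−0.98).

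**Figure D3:**
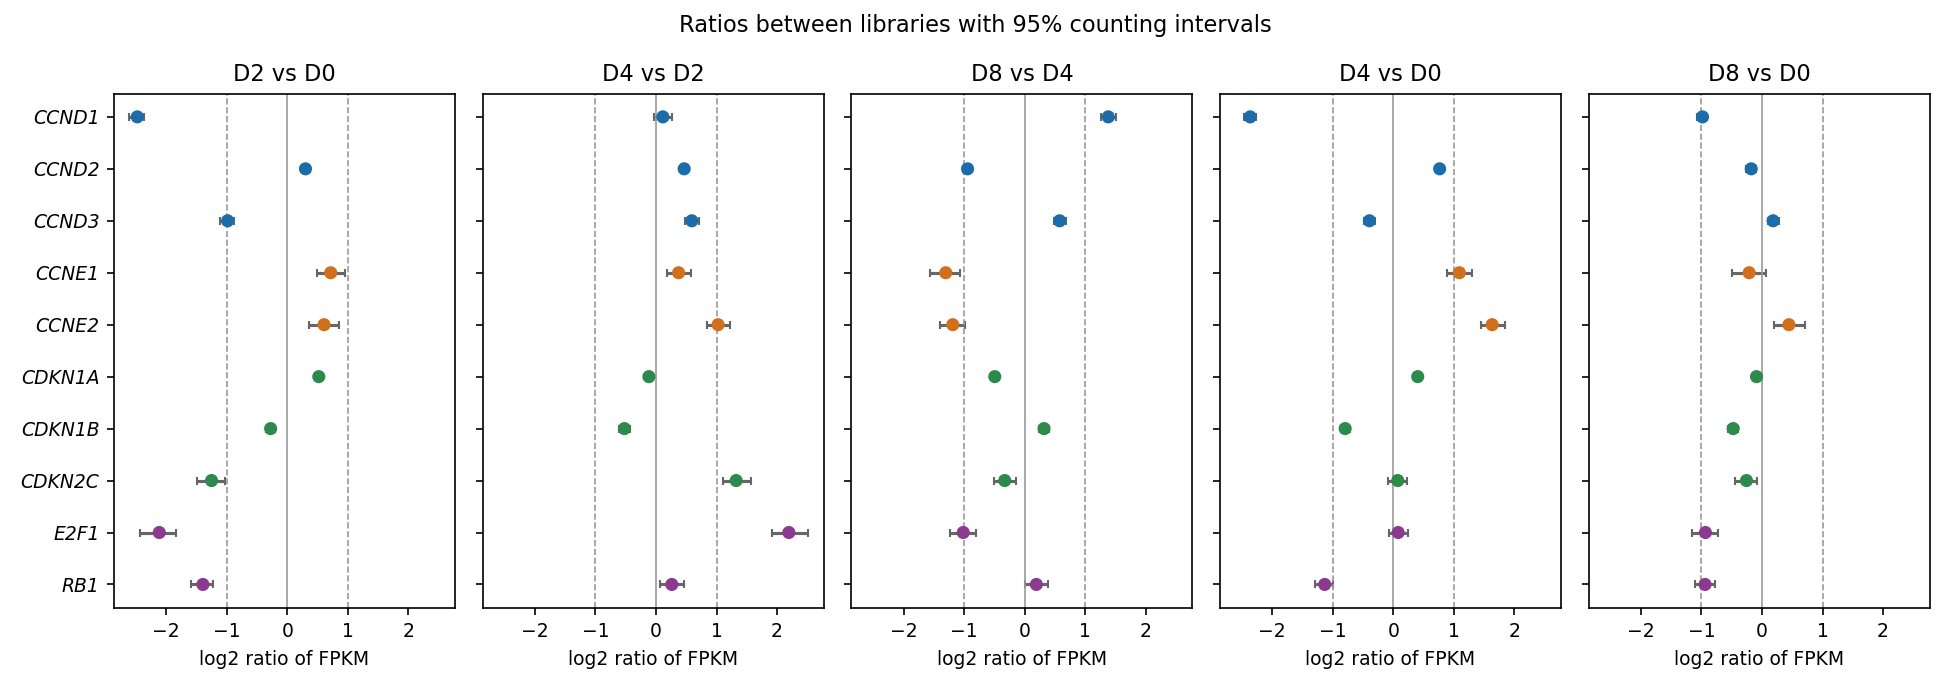
Log2 ratio of FPKM (x axis, 0.01 added to each value) of the 10 genes (y axis) in the 5 comparisons, 1 library per stage. Bars give the 95% counting interval, and dashed lines mark a ratio of 2 in either direction. CCND1 and E2F1 lie at −2.48 and −2.12 for D2 against D0, and E2F1 is at 2.20 for D4 against D2.

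The median log2 ratio of the 10 genes was −0.63 for D2 against D0, 0.42 for D4 against D2, −0.41 for D8 against D4, 0.08 for D4 against D0 and −0.23 for D8 against D0. The corresponding medians of all 9191 genes were −0.03, 0.09, −0.21, 0.06 and −0.18, so that at D8 the whole table was shifted down as well. Median-ratio size factors moved the median of all genes by 0.20 for D8 against D4 and by 0.16 for D8 against D0, and scaling by the protein-coding sum moved it by 0.11 for D2 against D0. With median-ratio size factors, the share of higher genes among all genes past the ratio went from 30.5% to 50.7% for D8 against D4, and from 49.5% to 66.6% for D8 against D0. For the members, D8 against D4 then had 1 higher and 1 lower in place of 1 and 3, beside 6.27% and 6.08% of all genes. FPKM at the highest stage was at least 2 times that at the lowest in 7 of the 10 genes (70.0%), compared with 30.8% of the 9191 genes. The lowest stage was D2 in 5 members (22.2% of all genes) and D8 in 3 (37.5%), and the highest stage was D4 in 5 (37.3%) and D0 in 3 (36.5%). For E2F1 and CDKN2C, counted here under D4, D4 and D0 lay within counting error. These are descriptions of 10 genes and 4 libraries, without a test.

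The genes for CDK4 and CDK2, kinases that these cyclins bind, stayed within a ratio of 2. CDK4, the partner of the D-type cyclins, had FPKM values of 54.0 on D0, 62.9 on D2, 79.6 on D4 and 49.6 on D8, and its highest stage was that of CCND2. CDK2, the partner of the E-type cyclins, had values of 4.14, 2.69, 3.85 and 5.05. Of the 5 genes of CDK catalytic partners and CDK-activating kinase that passed the filter, 0 reached a ratio of 2 in any of the 5 comparisons. CDK6 was in the list but was not found by its symbol among the protein-coding genes, so it has no values here. Among the other CDK inhibitors, the INK4 gene CDKN2D was at 5.92, 0.971, 1.69 and 3.74, and CDKN3, which encodes a phosphatase of CDKs, was at 15.3, 3.54, 3.59 and 8.50. Both were at least 2-fold lower at D2 than at D0 and at least 2-fold higher at D8 than at D4. CDKN1C and CDKN2B stayed under an FPKM of 1, the highest values being 0.302 and 0.321, and CDKN2A was not found by its symbol either.

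The pocket proteins related to RB1 did not share its order of stages. RBL2, which encodes p130, the pocket protein of resting cells, had FPKM values of 1.74 on D0, 4.97 on D2, 6.35 on D4 and 2.73 on D8. It was thus high at D2 and D4, where RB1 was low, with a log2 ratio of 1.86 for D4 against D0. RBL1, which encodes p107, had values of 5.17, 3.43, 4.90 and 3.73. E2F4, a repressive E2F factor that binds p130 and p107, was at 6.35, 7.65, 10.4 and 4.63, and the dimerization partner TFDP1 at 2.81, 3.48, 4.87 and 2.33, both highest at D4. LIN9, a subunit of the MuvB core, was at 3.55, 1.55, 2.45 and 3.01. In the list of 12 pocket protein, E2F, DP and MuvB genes past the filter, D2 against D0 had 1 gene at least 2-fold higher and 1 lower. The shares of all genes were 6.67% and 10.1%. The median log2 ratio was −0.07, beside −0.03 for all genes.

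E2F targets of the G1/S transition had the order of stages seen for E2F1 in part. Of 34 such genes, 30 passed the filter. For D2 against D0, 12 were at least 2-fold lower and 0 higher, beside 10.1% and 6.67% of all genes. The median log2 ratio was −0.85, beside −0.03 for all genes. For D4 against D2, 17 were at least 2-fold higher and 0 lower, beside 4.24% and 0.838%, with a median of 1.05 beside 0.09. For D8 against D4, 5 were lower and 0 higher, beside 10.1% and 4.43% (median −0.41 beside −0.21). The lowest stage was D2 in 26 of the 30 genes (86.7%), compared with 22.2% of the 9191 genes. Of the 30, 14 (46.7%) were lowest at D2 and highest at D4, compared with 3.99% of the 9191 genes.

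Among these targets, MCM3, a subunit of the replicative helicase, had FPKM values of 5.97 on D0, 1.94 on D2, 14.9 on D4 and 5.48 on D8. UHRF1, which maintains DNA methylation at replication, had values of 1.61, 0.339, 3.38 and 1.31. Both exceeded their D0 level at D4. TK1, the thymidine kinase of dividing cells, was at 36.8, 5.61, 20.6 and 25.6, and CCNA2, the cyclin A2 gene, at 17.7, 2.78, 7.57 and 11.4. These genes were lowest at D2 as well, but D4 was below D0 and D8 above D4.

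**Figure D4:**
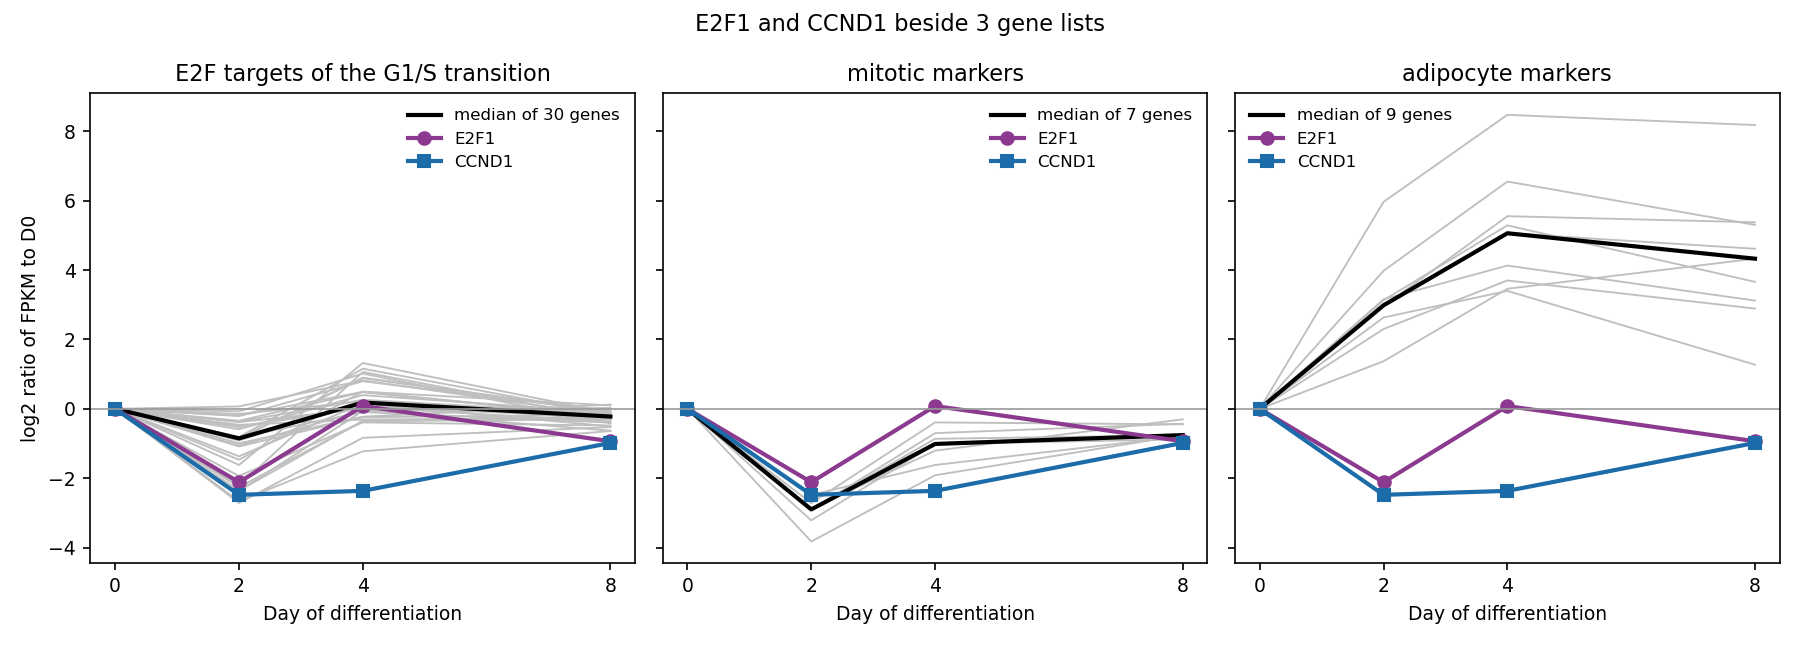
Log2 ratio of FPKM to D0 (y axis, 0.01 added to each value) at each stage (x axis) for E2F targets (30 genes), mitotic markers (7) and adipocyte markers (9), each gene in grey and the median in black, with E2F1 and CCND1 overlaid, 1 library per stage. The median of the E2F targets is −0.85 at D2 and 0.18 at D4, whereas that of the mitotic markers is −2.90 at D2 and −1.01 at D4.

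Mitotic markers give the state of the cycle past the G1 step. All 7 that passed the filter were at least 2-fold lower at D2 than at D0, beside 10.1% of all genes. Their median log2 ratio was −2.90, beside −0.03 for all genes. At D4, 6 of the 7 were at least 2-fold higher than at D2 (4.24% of all genes), with a median of 2.04 beside 0.09. Against D0, 4 of the 7 were still at least 2-fold lower at D4 (8.81% of all genes), with a median of −1.01 beside 0.06. CCNB1, the mitotic cyclin B1 gene, had FPKM values of 43.8, 3.09, 11.6 and 25.9 from D0 to D8. MKI67, the proliferation antigen, did not pass the filter and was at 0.817, 0.116, 0.587 and 0.390. It was lower at D8 than at D4, whereas 6 of the 7 markers past the filter were higher. E2F1 and the cyclin E genes were thus at or above their D0 level at D4, where the mitotic markers were below theirs.

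Genes that degrade or induce the members were taken from further lists. Of 13 genes for ubiquitin ligases of G1 cyclins and CDK inhibitors, 1 was at least 2-fold lower at D2 than at D0 (10.1% of all genes), 2 were higher at D4 than at D2 (4.24%), and 1 was higher and 1 lower at D8 than at D4 (4.43% and 10.1%). The median log2 ratios were 0.00, 0.19 and −0.32, beside −0.03, 0.09 and −0.21 for all genes. SKP2, the F-box protein that targets p27, had FPKM values of 4.84, 5.12, 4.81 and 3.68, and CKS2, which encodes a small CDK-binding protein, had values of 62.9, 10.5, 23.1 and 47.6. AMBRA1, which directs the degradation of D-type cyclins, was at 1.42, 2.64, 2.94 and 1.36. DTL, which recognises p21 during replication, was at 1.36, 0.744, 2.53 and 1.36.

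In the MYC network, 1 of 6 genes passed the ratio for D2 against D0, beside 16.8% of all genes, and this was MYC, a factor that induces D-type cyclins and CDK4, with FPKM values of 3.67, 10.3, 14.3 and 3.99 from D0 to D8.

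For each gene, the protein-coding genes with the most similar pattern were found among 8554 with an FPKM of at least 1 in all 4 libraries, as the root mean square difference of log2 values centred over the 4 libraries. MCM4, a helicase subunit, came nearest to E2F1 (0.21), followed by CLSPN, which encodes the checkpoint mediator claspin (0.30), and 0 genes lay within 0.1. The condensin gene NCAPD2 was among the nearest to CDKN2C (0.09). PAWR (0.04) and MICAL2 (0.06) were nearest to CCND1, with 8 genes within 0.1, and SMAD2 and MTSS1L (both 0.05) to RB1. For CCND2 they were ICK and NFATC4, for CCND3 SMS and BID, for CCNE1 GLG1 and ADPRH, for CCNE2 B4GALT5 and GPAM, and for CDKN1B RABL3 and TMEM126A. CDKN1A, nearest to FIBP and TM9SF1, had 315 genes within 0.1, so that its pattern was common in this table. With 4 points for each gene, this likeness is only a description.

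Other listed genes overlapped 4 of the members, all on the opposite strand. The lncRNA LOC106507534 covered 2199 bases of CCND2 and had FPKM values of 1.77 on D0, 0.198 on D2, 0.160 on D4 and 0.871 on D8, low where CCND2 was high. TAF8 overlapped CCND3 by 3193 bases and INTS8 overlapped CCNE2 by 1153 bases. INTS8 had values of 5.23, 6.36, 8.41 and 4.63, above those of CCNE2 and also highest at D4. LPAR6 lay inside RB1, at 0.517 to 0.776. The libraries kept the strand, but whether the counting used it is not given in the sources used here, so that reads on the shared stretches may be split between the partners.

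Circular RNAs were listed inside 2 of the 10 genes, out of 8623 circRNAs listed with at least 2 junction reads. In CDKN1A, ssc_circ_0003718 (chromosome 7, 32363175 to 32363420) had 4 junction reads at D8 and 0 at the other stages. In RB1, ssc_circ_0005320 (chromosome 11, 19200035 to 19204789) had 5 at D0 and 0 at the other stages. These numbers of reads are small, and differences between stages were not tested.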

How the data were processed

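RNA of 4 pooled libraries was sequenced by the authors, who aligned reads with HISAT2 2.0.5 (BWA for circRNAs). The authors deposited FPKM for mRNAs and lncRNAs and SRPBM (junction reads scaled by mapped reads) for circRNAs, both unlogged. The counting program and its strand setting are not given in the sources used here.

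Here, library totals were computed from FPKM steps of intronless small RNA genes, where values are whole reads (tolerance 0.02 reads), and reads of each member from the shortest whole length giving whole reads in all libraries. Levels have exact Poisson intervals and ratios exact conditional binomial intervals (95%, counting error only). Ratios were taken on log2(FPKM + 0.01), which understates changes of low genes, with 1 library per stage and no test. A ratio of at least 2 was counted among genes with an FPKM of at least 1 in at least 3 libraries. Python 3.11.15, pandas 2.3.3, numpy 2.4.6 and scipy 1.17.1 were used, and the scripts were tested on simulated data.

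All 10 genes are named. From the 13 companion lists (147 of 151 genes found), the 4 genes of largest range past the ratio and filter could be named, with a fixed set of core regulators (CDK2, CDK4, CDK6, CDKN1C, CDKN2A, CDKN2B, RBL1, RBL2, SKP2 and MKI67 among them), the 2 genes most similar to each member, and overlapping RNAs. PTPRC is named beside its list after its values were seen. Some genes that the rule names, and 1 list, are not reported here. The members and lists were chosen with earlier results of these data known. Member positions and identifiers matched RefSeq genes of Sscrofa11.1. Alternatives were another pseudocount (0.1 or 1), ratio (1.5), filter and scaling.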

Additional observations from a re-analysis of the deposited data

How the results depend on the processing

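With a pseudocount of 1, the counts were 2 lower for D2 against D0 (7.64% of all genes) and 1 higher for D4 against D2 (2.54%). They were 0 lower for D8 against D4 (5.16%), and 0 higher and 1 lower for D4 against D0 (7.28% and 6.57%). A pseudocount of that size shrinks ratios of genes near an FPKM of 1 by construction. With a ratio of 1.5, 2 members were higher for D2 against D0 and 3 lower for D8 against D0. With an FPKM of at least 1 required in all 4 libraries, which removes CCNE2 and E2F1, 1 was higher for D4 against D2, 1 lower for D8 against D4 and 1 higher for D4 against D0. The shares of all genes for the ratio of 1.5 and for this filter were not computed, so these counts have no background beside them. With median-ratio size factors, 1 was lower for D8 against D4 (6.08% of all genes). Single calls ended more often than these counts show: CCNE2 for D4 against D2 was lost in 5 of the 7 alternatives, with a pseudocount of 0.1 and the protein-coding sum among them, and E2F1 for D8 against D4 in 4, with a pseudocount of 0.1 among them. The setting without a filter could not move a count, since all 10 genes passed. The ratio of 1.5 could add calls but not lose any. Over all 9191 genes, counts past the ratio moved by over 1.5 times for D2 against D0 (613 higher, 398 with a pseudocount of 1), D4 against D2 (390 higher and 77 lower, 233 and 38 with it), D8 against D4 (928 lower, 474 with it and 559 with median-ratio factors) and D8 against D0 (338 lower, 173 and 204). Of 50 member ratios, 1 changed sign with these factors (CDKN1A, D8 against D0) and 0 with another pseudocount or with the protein-coding sum. No paired analysis was possible because each stage has 1 library, and none could be left out. Among the members, depth limits E2F1 at D2 most (109 reads), and it limits the circRNAs still more.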

Other observations

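The 4 further E2F genes below the expression filter were named after their values were seen. E2F8, an atypical repressive E2F and itself a known E2F target, had FPKM values of 0.423 on D0, 0.0172 on D2, 0.486 on D4 and 0.349 on D8. E2F7, its relative, was at 0.333, 0.0805, 0.293 and 0.176, and E2F2, an activating factor like E2F1, at 0.253, 0.0958, 0.221 and 0.150. D2 was the lowest stage in these 3 genes, but their read numbers were not computed. The D2 value of E2F8 is under the FPKM of 0.0546 that 3 reads on 1000 bases give at D2. E2F5, a repressive factor, was at 1.06, 0.509, 0.422 and 1.004, with its lowest value at D4. E2F3, which passed the filter, was at 3.03, 2.03, 2.85 and 1.54, with its lowest value at D8.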
